A study of Rattus norvegicus with 4 samples.

Results

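On day 11 after a fracture, the callus of diabetic rats was compared with that of control rats by its microRNAs (miRNAs), short RNAs that repress messenger RNAs by pairing with them. Of the 4 one-colour miRNA arrays of the study, 2 carry this comparison, and the other 2 hold the same groups on day 5. All 727 rat miRNA spots were used, and 433 of them were detected on both day 11 arrays. The animals were 12-week-old male Sprague-Dawley rats. Diabetic rats received streptozotocin, which destroys the beta cells of the pancreas, at 40 mg/kg in 1 intravenous injection, and their blood glucose was above 300 mg/dl. Control rats received sodium chloride and had a normal blood glucose. In both groups a wire was placed in the canal of the right femur and the shaft was broken with the skin closed. The callus of 5 animals was pooled per group and day before RNA isolation, so each array stands for 1 pool, no difference has a replicate check and no p-value is given.

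A fracture callus bridges a broken bone first with a cartilage template and then with bone that replaces it. Chondrocytes, the cells of cartilage, are known for the miRNAs miR-140 and miR-455, and the miR-140 gene is under the control of SOX9, the master transcription factor of cartilage. Each miRNA acts mainly through its seed, the bases near its 5′ end that pair with the target. Both strands of a hairpin can give a mature miRNA, named by its arm (5p or 3p), and neighbouring hairpins are often made from 1 transcript.

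Levels are spot intensities from which the average blank spot of the same array was subtracted, scaled so that the median over the 400 miRNAs detected on all 4 arrays is 100. A miRNA counts as detected above the blank mean plus 2 SD, which is a level of 11.5 on the control and 11.9 on the diabetic array. Differences are log2 values of diabetic minus control. The technical error given with them combines the spread of spike control spots with that of blank spots and leaves out animals, pools and hybridisations. Different miRNAs are read by different probes, so an order or a sum of levels describes the brightness of spots, not amounts of RNA.

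Diabetic callus on day 11 had lower levels of the cartilage miRNAs miR-140 and miR-455, of miR-210-3p, the miRNA best known for its induction by hypoxia, and of miR-99a and miR-100. It had higher levels of miR-221-3p, of the miR-17-92 cluster and of many miRNAs of the imprinted Dlk1-Dio3 region. Of the 433 miRNAs, 21 (4.85%) were at least 2-fold lower and 17 (3.93%) at least 2-fold higher. At 1.5-fold the counts were 53 (12.2%) lower and 52 (12.0%) higher, and 228 (52.7%) were higher by any amount.

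The mature sequences of the miRNAs that carry the lower side are shown first, with the seed (bases 2 to 8) in capitals, as RefSeq gives them on the rat build GRCr8. They show that the arms of 1 hairpin, such as miR-140-5p and miR-140-3p, have different seeds.
miR-140-3p: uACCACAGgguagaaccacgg
miR-140-5p: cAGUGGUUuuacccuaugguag
miR-455-3p: gCAGUCCAcgggcauauacacu
miR-675-3p: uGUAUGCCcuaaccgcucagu
miR-210-3p: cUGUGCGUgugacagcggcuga
miR-6216: gAUACACAgaggcaggaggagaa
miR-3075: uGUCUGGGagcagccaaggacaag
miR-207: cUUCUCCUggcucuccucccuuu
miR-3557-3p: aCACAGGAccuggagucaggag
miR-100-5p: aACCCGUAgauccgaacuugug
miR-503-5p: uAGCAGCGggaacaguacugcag

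The sequences of the higher side are shown next. miR-17-5p, miR-20a-5p and miR-93-5p have the same seed, as do miR-19a-3p and miR-19b-3p, which differ by 1 base over their whole length.
miR-221-3p: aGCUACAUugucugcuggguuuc
miR-379-5p: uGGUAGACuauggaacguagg
miR-379-3p: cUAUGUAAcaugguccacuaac
miR-411-3p: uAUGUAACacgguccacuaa
miR-376a-3p: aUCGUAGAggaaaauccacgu
miR-127-3p: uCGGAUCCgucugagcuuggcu
miR-17-5p: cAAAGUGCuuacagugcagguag
miR-20a-5p: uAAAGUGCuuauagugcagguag
miR-93-5p: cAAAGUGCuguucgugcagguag
miR-19a-3p: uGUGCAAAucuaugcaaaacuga
miR-19b-3p: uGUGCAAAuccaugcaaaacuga

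Of the 727 miRNAs, 653 matched a mature sequence in RefSeq by name, including 389 of the 433 detected on both arrays and 34 of the 38 that were 2-fold different. miR-455-5p, miR-30d-3p, miR-181b-2-3p and miR-674-3p are named only.

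On the control day 11 array 501 (68.9%) and on the diabetic array 482 (66.3%) of the miRNAs were detected. Of these, 68 were detected on the control array only, 49 on the diabetic array only, and 177 miRNAs were on neither. The diabetic array was dimmer as scanned, where spike control 1 averaged 14528 as against 36103 on the control array, and after scaling the same spike stood at 29663 against 29265. Of 675 spots with no probe, 150 (22.2%) on the control and 121 (17.9%) on the diabetic array passed the detection limit, so a level just above it does not by itself show a miRNA. Of these spots 37 passed it on both arrays, and 1 of the 37 (2.70%) was 2-fold different. The brightest spot with no probe stood at 41.9 on the control and 88.2 on the diabetic array. The brightest negative control spot stood at 51.3. Of the 433 miRNAs, 299 were above that value on at least 1 of the day 11 arrays, and among them 11 were 2-fold higher and 17 were 2-fold lower. The local background, which the levels above do not use, exceeded 50% of the spot on at least 1 day 11 array for 340 (78.5%) of the 433 miRNAs and for 33 of the 38 that were 2-fold different. An alternative that corrects for the local background with limma's normexp method and then normalises by quantiles is therefore set beside the levels. An offset of 50 is added to each corrected intensity, which makes the differences of dim spots smaller in size. For dim miRNAs a smaller difference with normexp therefore decides nothing. Normexp gave 17 miRNAs 2-fold lower, of which 9 were among the 21, and 12 2-fold higher, of which 1 was among the 17. The 8 that were 2-fold lower with normexp alone were miR-99a-5p, miR-100-5p, let-7i-5p, miR-6215, miR-878, miR-143-5p, miR-99b-5p and miR-503-5p, between -1.04 and -2.21. The 11 that were 2-fold higher with normexp alone were miR-223-3p, miR-191a-5p, miR-351-3p, miR-3068-3p, miR-3573-3p, miR-211-3p, miR-199a-5p, miR-26b-5p, miR-451-5p, miR-125b-5p and miR-26a-5p, between 1.07 and 6.17. The local background of these 11 on the control array was between 73.7 and 106% of the spot.

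The log2 differences had a median of 0.03, quartiles of -0.29 and 0.35, and a range from -2.27 to 1.71. The median technical error was 0.18, and 173 miRNAs (40.0%) lay within 1 technical error of 0. The spread depended on brightness. Among the 65 miRNAs with a mean level above 1000 the SD of the differences was 0.41 and 2 (3.08%) were 2-fold different. Among the 151 with a mean level under 50 the SD was 0.68 and 21 (13.9%) were. Of the 2-fold miRNAs, 9 of the lower and 5 of the higher ones had a level above 100 on either array. For 13 of the 21 lower and 13 of the 17 higher miRNAs the dimmer of both levels was not above the brightest negative control spot, so the size of those differences is not settled. The log2 levels of both arrays had a Pearson correlation of 0.974 across the 433 miRNAs, which are not independent replicates.

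**Figure D1:**
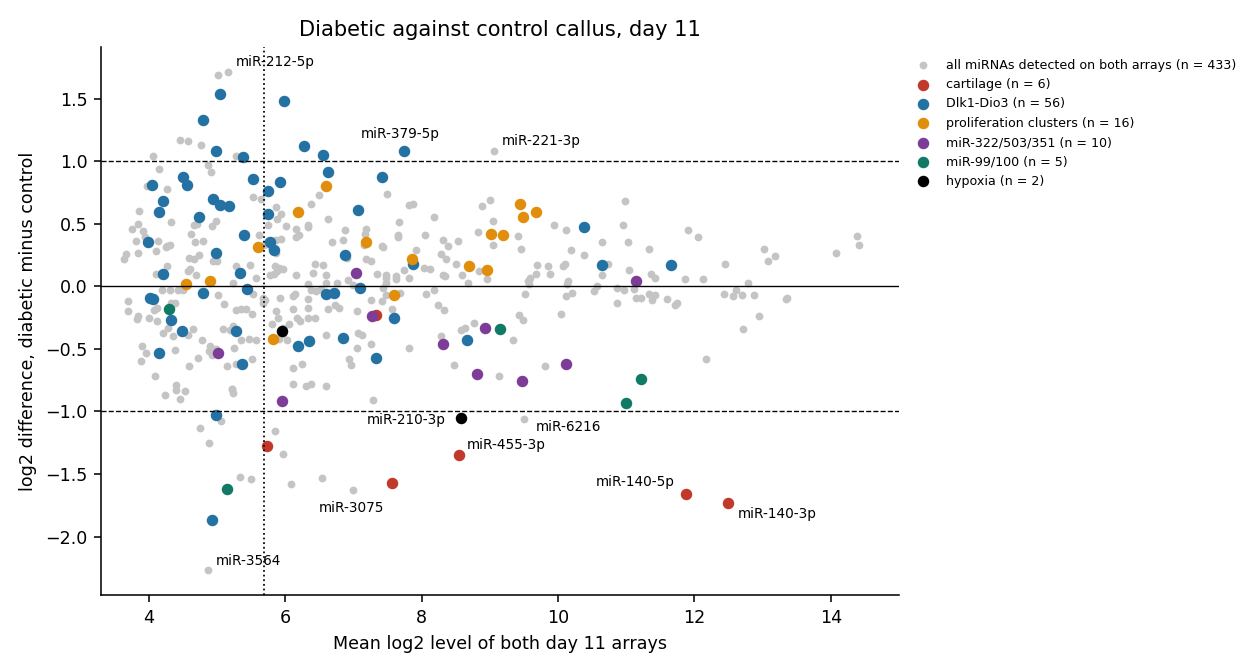
Mean log2 level of both day 11 arrays against the log2 difference, diabetic minus control, for the 433 miRNAs detected on both (points), with 6 lists in colour. Dashed lines mark 2-fold and the dotted line the brightest negative control spot (51.3); miR-140-3p and miR-140-5p lie below -1.6 among the bright miRNAs, where few others pass 2-fold.

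The arms of miR-140 were the 2 miRNAs with a mean level above 1000 that differed 2-fold. miR-140-3p lies in the gene Wwp2 (chr19:52375353-52375373, plus strand), and its level was 10566.5 in control and 3187.3 in diabetic callus. That is a log2 difference of -1.73 (technical error 0.11), or 3.32-fold lower. The other arm, miR-140-5p (chr19:52375314-52375335), went from 6674.7 to 2110.6, a difference of -1.66 (technical error 0.11). Both arms were thus lower by about the same amount. On day 5 the levels of miR-140-3p were 1309.0 in control and 1453.6 in diabetic callus, and those of miR-140-5p were 785.3 and 828.9. The control day 11 array was therefore the highest of the 4 for both arms, and the diabetic day 11 array lay between it and the day 5 arrays.

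miR-455, which lies in the collagen gene Col27a1 (miR-455-3p at chr5:81704881-81704902, plus strand), had the same order of arrays. On day 11 miR-455-3p stood at 600.6 (control) and 234.8 (diabetic), a difference of -1.35 (technical error 0.12), against 135.3 and 175.0 on day 5. miR-455-5p stood at 327.0 and 109.8 on day 11, a difference of -1.57 (technical error 0.14), against 80.7 and 99.3 on day 5. miR-675 is cut from the imprinted noncoding RNA H19 and has been linked to type II collagen in human chondrocytes. Its 3p arm (chr1:207161766-207161786, minus strand) went from 82.8 to 34.2, under the brightest negative control spot, a difference of -1.28 (technical error 0.29). Its 5p arm went from 174.3 to 148.8, a difference of -0.23 (technical error 0.13), so the arms of this hairpin differed by 1.05 on the log2 scale.

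All 6 cartilage miRNAs on the array were detected on both arrays and lower in diabetic callus, 5 of them 2-fold, with a median of -1.46 beside 0.03 over all 433. Summed over the list, the day 11 level was 18425.8 for control and 5825.4 for diabetic callus, against 2512.4 and 2755.6 on day 5. In pooled tissue, fewer cells of a type and less miRNA per cell cannot be told apart. With the normexp correction miR-140-3p was at -1.43, miR-140-5p at -1.83, miR-455-3p at -2.34 and miR-455-5p at -1.60, and miR-675-3p was inside 2-fold at -0.76.

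**Figure D2:**
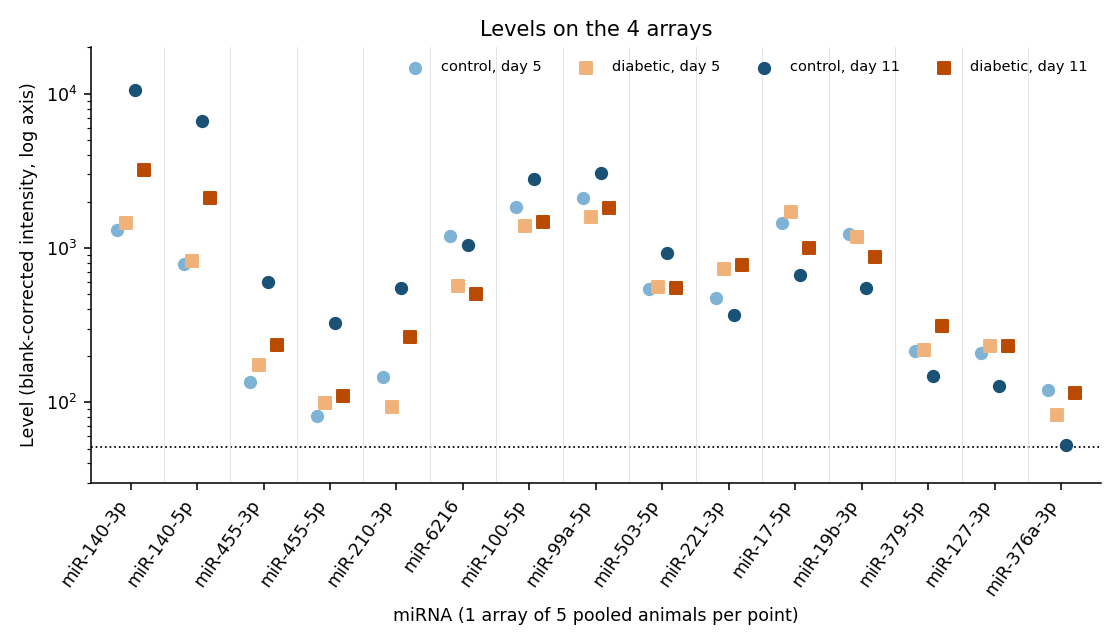
Levels of 15 miRNAs (log axis, blank-corrected intensity) on the 4 arrays, control as circles and diabetic as squares, day 5 pale and day 11 dark; each point is 1 array of 5 pooled animals, and the dotted line is the brightest negative control spot (51.3). For miR-140 and miR-455 the control day 11 array stands alone at the top, while miR-6216 is lower in diabetic callus on both days.

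miR-210-3p (chr1:205755946-205755967, minus strand) went from 546.2 in control to 263.0 in diabetic callus, a difference of -1.05 (technical error 0.11). On day 5 it was at 145.1 and 92.8, so it was lower in diabetic callus on both days and higher on day 11 than on day 5 in both groups. Its 5p arm, at 70.2 and 54.8 on day 11, differed by -0.36 (technical error 0.22). The arms of miR-210 thus had the same direction and unequal sizes. With the local background subtracted miR-210-3p was at -0.67, inside 2-fold, and with normexp at -1.03. Scaled on the miRNAs detected on both day 11 arrays it was at -0.99.

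Among the other 2-fold lower miRNAs the brightest was miR-6216, which RefSeq places on chr3:65165595-65165617 (minus strand) with no overlapping gene. It went from 1042.7 to 500.0, a difference of -1.06 (technical error 0.11), and on day 5 from 1190.8 to 570.2, also -1.06. Here the diabetic array was the lower one on both days by the same ratio. miR-3075, in Zmiz1 (chr16:1107909-1107932), went from 224.5 to 72.7, a difference of -1.63 (technical error 0.16). miR-3557-3p, at a position within Ppargc1b (chr18:57128962-57128983, plus strand), went from 158.7 to 54.8, a difference of -1.53 (technical error 0.20). RefSeq places miR-378a-5p at the same position on the minus strand, and it went from 68.7 to 95.3 (0.47, technical error 0.19). miR-207, in Dnaja1 (chr5:60638847-60638869), went from 116.8 to 39.0, a difference of -1.58 (technical error 0.25). Its diabetic level was under the brightest negative control spot, so the size of that difference is not settled. On day 5 miR-3075, miR-3557-3p and miR-207 differed by -0.63, -0.97 and -0.77, so they were lower in diabetic callus on both days.

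miR-3564 and miR-758-5p were at 63.9 and 58.4 in control callus, and in diabetic callus both were under the brightest negative control spot. Their differences of -2.27 and -1.87 are therefore against background. With normexp they were -0.51 and -0.74, and with the local background subtracted -1.1 and -1.22. The remaining lower miRNAs were miR-99a-3p, miR-6317, miR-183-3p, miR-330-3p, miR-203a-3p, miR-6324, miR-30d-3p, miR-30c-2-3p and miR-376b-5p, with differences between -1.03 and -1.62. None of these had a level above 100 on either array, and miR-203a-3p, miR-30d-3p, miR-30c-2-3p and miR-376b-5p did not exceed the brightest negative control spot. Of the 21, 12 had a value under all 9 other ways of processing, and 7 of these were 2-fold lower in all. They were miR-140-3p, miR-140-5p, miR-455-3p, miR-455-5p, miR-3075, miR-207 and miR-3557-3p. Of the 9 ways, the deposited values and the scalings by day 11 median or spike controls only shift all differences alike.

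miR-99a and miR-100 belong to 1 family of closely similar miRNAs known for repressing the kinase mTOR. The probe for miR-100-5p (chr8:50798307-50798328) read 2798.6 in control and 1472.2 in diabetic callus, a difference of -0.93 (technical error 0.11), just short of 2-fold. miR-99a-5p read 3063.1 and 1829.2 (-0.74, technical error 0.11), and miR-99b-5p read 637.2 and 503.7 (-0.34, technical error 0.11). All 5 members detected on both arrays were lower, 3 of them by 1.5-fold (12.2% of all miRNAs were), with a median of -0.74. With the local background subtracted, miR-99a-5p was at -1.92 and miR-100-5p at -1.51, beyond 2-fold, and miR-99b-5p was at -0.74. On day 5 miR-100-5p read 1835.9 in control and 1386.1 in diabetic callus, and miR-99a-5p read 2108.4 and 1579.5. The day 5 median of the family was -0.41, with miR-99b-3p going the other way (0.14). Whether the probes tell these similar miRNAs apart was not tested.

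The X-linked cluster of miR-322, miR-503, miR-351, miR-542 and miR-450a is known for miRNAs that repress cyclins and other cell cycle genes. RefSeq places its hairpins on chrX:137720933-137726241 (minus strand), and 10 of its mature miRNAs were detected on both arrays. Of these 8 were lower and 2 higher, with a median of -0.49, and 4 were lower by 1.5-fold (12.2% of all miRNAs were). miR-503-5p went from 924.4 to 546.4 (-0.76, technical error 0.11), miR-450a-5p from 1366.3 to 888.7 (-0.62) and miR-322-3p from 573.3 to 352.7 (-0.70). The brightest member did not follow, with miR-322-5p at 2233.4 and 2294.0 (0.04, technical error 0.11), nor did miR-351-3p at 125.7 and 135.6. With normexp miR-503-5p was at -1.04, beyond 2-fold, while miR-450a-5p was at -0.30 and miR-322-3p at -0.53, inside 1.5-fold, and the list's median was -0.40. On day 5 miR-503-5p was at 538.8 and 560.6, and miR-322-3p at 234.7 and 190.8.

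On the higher side, miR-221-3p (chrX:6023246-6023268, plus strand) was the brightest 2-fold miRNA. miR-221 and its neighbour miR-222 share a seed and are known for repressing the cell cycle inhibitor p27. miR-221-3p went from 367.3 to 778.1, a difference of 1.08 (technical error 0.11), and miR-222-3p from 81.6 to 118.8, a difference of 0.54 (technical error 0.17). On day 5 miR-221-3p was at 474.6 and 730.4, and miR-222-3p at 70.3 and 135.1. Both were higher in diabetic callus on both days. With normexp the day 11 difference of miR-221-3p was 0.78, which is inside 2-fold.

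The miR-17-92 cluster, known for promoting proliferation and needed for normal skeletal growth, lies on chr15:98587848-98588632 (plus strand). All 7 of its mature miRNAs that were detected on both arrays were higher in diabetic callus, where 52.7% of all miRNAs were, by 0.31 to 0.80 with a median of 0.59, and 4 of them by 1.5-fold (12.0% of all). miR-17-5p went from 666.7 to 1005.0 (0.59, technical error 0.11), miR-20a-5p from 594.8 to 869.1 (0.55, technical error 0.11) and miR-19b-3p from 554.0 to 876.6 (0.66, technical error 0.11). RefSeq also gives miR-17-5p, miR-19b-3p and miR-92a-3p at the paralogous cluster on chromosome X, and 1 probe reads both copies. On day 5 the levels of miR-17-5p, miR-20a-5p and miR-19b-3p were higher in both groups, with miR-17-5p at 1452.1 and 1717.8, miR-20a-5p at 1081.6 and 1071.1, and miR-19b-3p at 1236.1 and 1171.4. The control day 11 array was the lowest of the 4 for each. With normexp miR-20a-5p (0.57), miR-17-5p (0.32) and miR-19b-3p (0.10) were all inside 1.5-fold, where miR-20a-5p was with blank correction too. With the local background subtracted and no quantile step these 3 were at 0.76, 0.72 and 0.40.

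The paralogous cluster of miR-106b, miR-93 and miR-25 on chr12:22156641-22157123 (minus strand) was higher by 0.02 to 0.42, with 6 of 6 above 0 and none by 1.5-fold. Together with the X-linked paralogs, the list of proliferation-linked clusters had 14 of 16 members higher, with a median of 0.33. Grouped by seed, the 5 miRNAs with AAAGUGC (miR-17-5p, miR-20a-5p, miR-20b-5p, miR-93-5p and miR-106b-5p) were all higher, with a median of 0.42. The 8 let-7 miRNAs with GAGGUAG lay between -0.24 and 0.09.

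The Dlk1-Dio3 region on chromosome 6 is imprinted, and its many miRNAs are expressed from the maternal chromosome, mostly in the embryo and in mesenchymal and neural tissue. Of 88 miRNAs of the list on the array, 56 were detected on both day 11 arrays, 36 of them higher (52.7% of all miRNAs were) and 20 lower, with a median of 0.32 beside 0.03 over all. By 1.5-fold 22 were higher and 3 lower, beside 12.0% and 12.2% of all miRNAs, and by 2-fold 8 were higher and 2 lower, beside 3.93% and 4.85%. Among the 30 with a level above the brightest negative control spot the median was also 0.32. The 8, of the 17 miRNAs that were 2-fold higher in all, were miR-379-5p, miR-379-3p, miR-411-3p, miR-376a-3p, miR-376c-3p, miR-382-5p, miR-410-3p and miR-337-3p.

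miR-379-5p (chr6:134543460-134543480, plus strand) went from 146.8 to 309.6, a difference of 1.08 (technical error 0.13), against 215.8 and 218.5 on day 5. Its other arm, miR-379-3p, went from 37.7 to 105.6 (1.48, technical error 0.26), against 103.7 and 76.6 on day 5. miR-411-3p went from 65.3 to 135.4 (1.05, technical error 0.18) and miR-411-5p from 72.0 to 134.8 (0.91, technical error 0.17). For both hairpins, which are neighbours, each arm was higher on the diabetic day 11 array, and the control day 11 array was the lowest of the 4.

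Elsewhere in the region, miR-376a-3p went from 52.6 to 114.6 (1.12, technical error 0.21), and miR-127-3p from 126.7 to 231.3 (0.87, technical error 0.13), against 209.4 and 231.6 on day 5. miR-494-3p was at 3044.3 and 3436.8 (0.17, technical error 0.11), but at 0.96 with normexp and 1.18 with the local background subtracted. miR-487b-3p was at 1129.0 and 1564.3 (0.47, technical error 0.11), and at 0.09 with normexp. Lower members included miR-370-3p, from 472.0 to 350.9 (-0.43, technical error 0.11), and miR-667-5p, from 196.1 to 131.7 (-0.57, technical error 0.13).

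Along the chromosome, the part from miR-379 to miR-410 (chr6:134543445-134579838) had 25 of 37 higher with a median of 0.41, and the part from miR-770 to miR-136 (chr6:134298084-134331416) had 8 of 15 higher with a median of 0.11. The share higher in the second is that of all miRNAs (52.7%), and the difference between the stretches was not tested. With normexp the median of the whole list was 0.14, and miR-379-5p, at 1.22, was the only one of the 8 that stayed 2-fold higher. miR-376c-3p was at -0.27, miR-376a-3p at 0.25 and miR-382-5p at 0.32, while miR-127-3p was at 0.90. The normexp offset makes the differences of dim members smaller in size, so these values do not decide on them. With the local background subtracted the median of the list was 0.17.

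**Figure D3:**
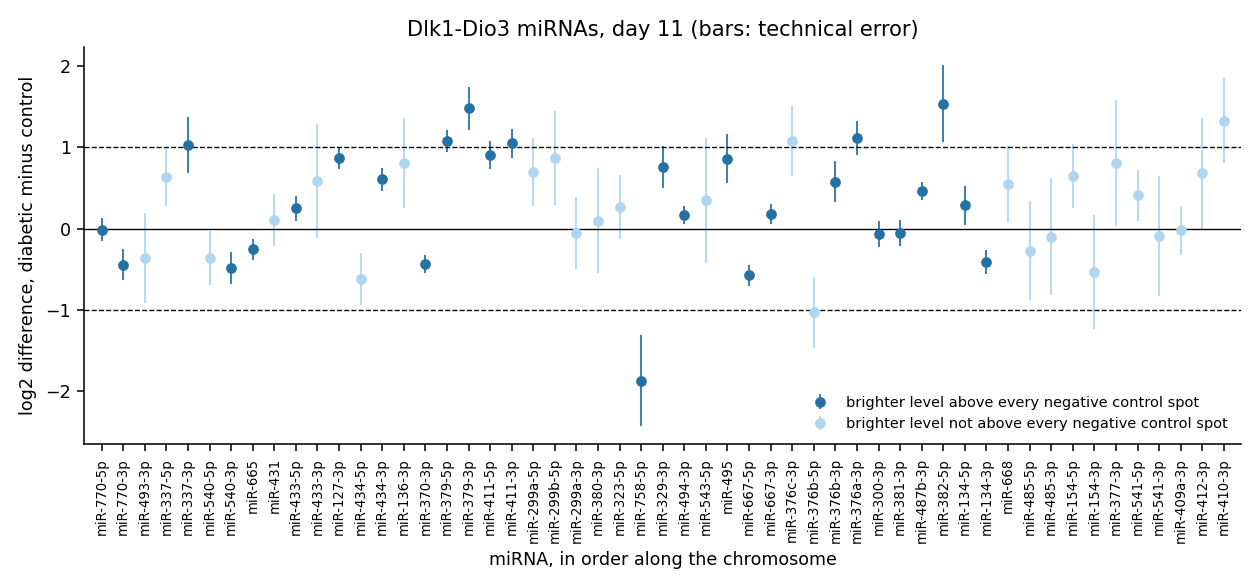
log2 difference, diabetic minus control on day 11, of the Dlk1-Dio3 miRNAs detected on both arrays and placed by RefSeq, in order along the chromosome, with the technical error as bars; dark points exceed the brightest negative control spot and dashed lines mark 2-fold. The miRNAs around miR-379 and miR-411 lie near or above 1, while neighbours such as miR-758-5p (-1.87) and miR-667-5p (-0.57) lie below 0.

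The other 2-fold higher miRNAs were miR-212-5p, miR-6322, miR-181b-2-3p, miR-122-5p, miR-92b-3p, miR-741-5p, miR-674-3p, miR-3102 and miR-221-3p, given above. Apart from miR-221-3p none reached a level of 100. miR-212-5p was at 19.8, under the brightest negative control spot, and 64.7 (1.71, technical error 0.45). Its other arm, miR-212-3p, went from 170.5 to 242.0 (0.51, technical error 0.12). miR-122-5p, the abundant miRNA of liver, was at 15.8 and 35.4, under the brightest negative control spot on both arrays.

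Some bright miRNAs differed by 1.5-fold but not 2-fold. miR-92b-5p went from 1595.2 to 2562.2 (0.68, technical error 0.11) and miR-615, which lies among the Hox genes, from 403.9 to 653.2 (0.69, technical error 0.11). miR-15b-5p went from 379.8 to 593.0 (0.64, technical error 0.11). In the other direction, miR-143-5p went from 725.1 to 441.1 (-0.72, technical error 0.11) while its partner miR-143-3p was at 2539.4 and 2712.3 (0.10, technical error 0.11). With normexp miR-143-5p was at -1.09, beyond 2-fold, and miR-92b-5p (0.53), miR-615 (0.16) and miR-15b-5p (0.28) were inside 1.5-fold.

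The 10 brightest probes lay between -0.24 and 0.40. The brightest was miR-375-5p at 19552.6 and 24585.1 (0.33, technical error 0.11), followed by miR-21-5p, a miRNA of fibrosis and injury, at 18533.5 and 24454.1 (0.40, technical error 0.11). The other arm, miR-375-3p, was under the detection limit on both day 11 arrays (9.85 and 8.92). What the probe for miR-375-5p reads was not tested. On day 5 miR-21-5p ran the other way, at 33895.7 in control and 25787.1 in diabetic callus. miR-199a-3p and miR-199a-5p, from the mesenchymal miR-199a and miR-214 transcript, were at 0.27 and 0.30. miR-23a-3p and miR-23b-3p, whose sequences differ by 1 base, were at -0.09 and -0.10. miR-16-5p (0.24), miR-347 (0.20), let-7c-5p (-0.24) and let-7a-5p (-0.07) complete the list. With the local background subtracted miR-375-5p was at 0.44, miR-21-5p at 0.31 and miR-199a-3p at 0.24, but miR-199a-5p was at 1.94, and its local background was 80.6% of the spot on the control and 24.3% on the diabetic array. Quantile normalisation says nothing about the first 3, since it gives equal values to spots of equal rank.

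Marker miRNAs of other cells the callus holds were listed beside these. Of the skeletal muscle miRNAs, 9 of 15 were detected on both arrays, 6 higher and 3 lower with none by 1.5-fold and a median of 0.19. Sums run over all miRNAs of a list, detected or not, with negative levels left out. For muscle the sum was 9826.0 in control and 10416.8 in diabetic callus, and miR-1-3p was at 2766.7 and 2563.8. Of the leukocyte miRNAs, 10 of 14 were detected on both, 5 higher and 5 lower, with a median of -0.10. All 14 summed to 2378.2 and 2439.5. miR-223-3p, a miRNA of neutrophils and monocytes, was at 598.2 and 789.0 (0.40, technical error 0.11), and miR-142-3p at 264.4 and 291.7. With normexp miR-223-3p was at 1.07, beyond 2-fold, and the list's median was -0.17. On the blank-corrected scale the sums of the muscle and leukocyte lists thus differed by less than the cartilage sum.

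The erythroid list was carried by miR-451-5p, at 1495.5 and 1458.2 (-0.04, technical error 0.11), with summed levels of 1606.6 and 1559.2. With normexp miR-451-5p was at 3.67, and its local background was 97.0% of the spot on the control and 13.9% on the diabetic array. The endothelial miR-126a-3p was at 3649.5 and 3808.3 (0.06, technical error 0.11), and with normexp at 0.76. Sums over the endothelial list were 3963.6 and 4160.0. Among the smooth muscle miRNAs, with sums of 4396.7 and 4318.6, miR-145-5p was at 1110.2 and 1123.9 (0.02, technical error 0.11).

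Of the epithelial miRNAs, 4 of 14 were detected on both arrays, 1 higher and 3 lower, with a median of -0.53. All 14, detected or not, summed to 179.4 and 192.1, so undetected spots are part of these sums. miR-141-3p, miR-200a-3p and miR-200c-3p were under the detection limit on the control array. Of the neural miRNAs, 6 of 12 were detected on both, and miR-124-3p was under the limit on both arrays. All 12 summed to 1501.8 and 1600.4. Among miRNAs linked to osteoblasts, bone-forming cells, the 6 detected on both had a median of -0.09, 2 of them higher and 4 lower. miR-204-3p was at 3603.7 and 3291.1 (-0.13). The lowest difference was that of miR-204-5p, at 159.8 and 122.2 (-0.39), and the highest that of miR-218a-5p, at 101.1 and 130.9 (0.37). What part any of these cells has in the differences was not tested.

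**Figure D4:**
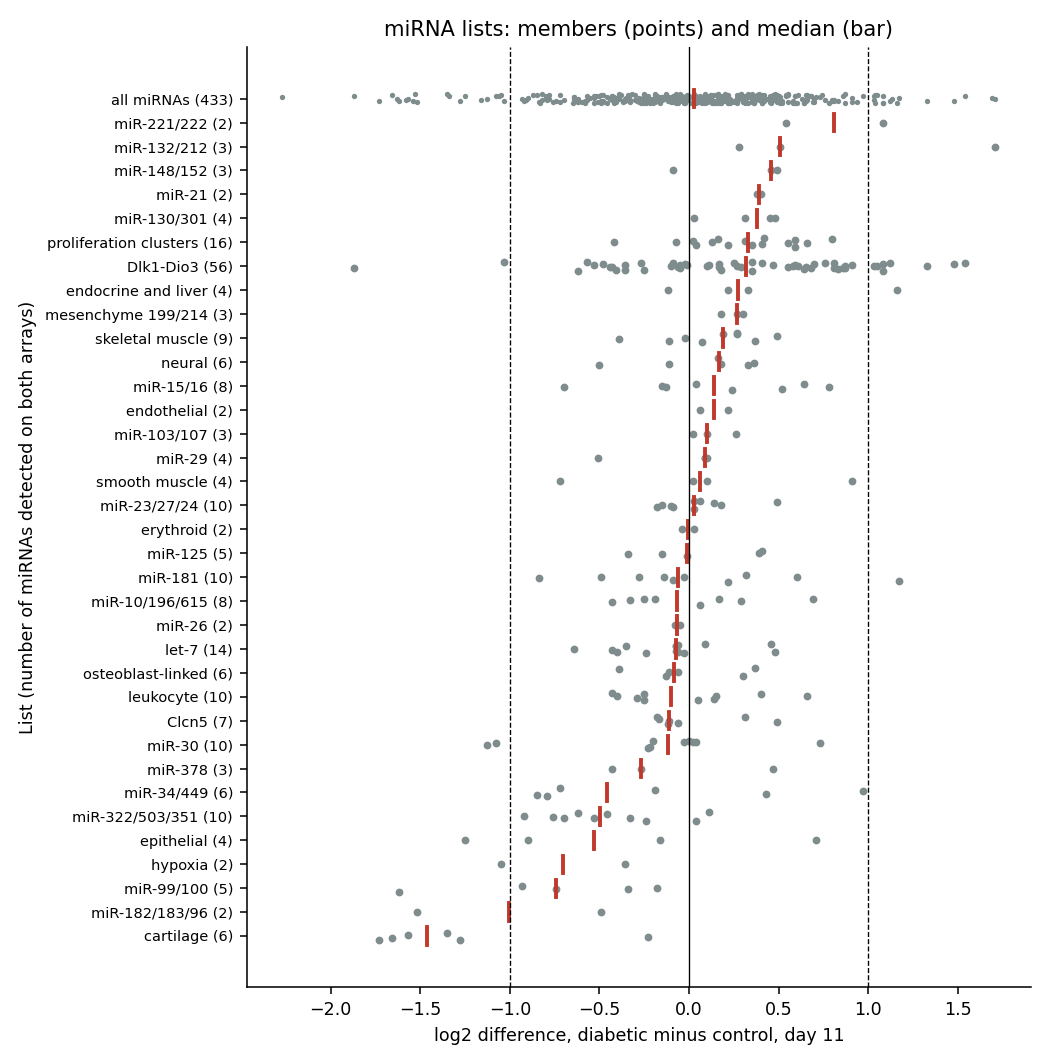
log2 difference, diabetic minus control on day 11, for the miRNAs of each list detected on both arrays (points, number in brackets), with the median as a bar and 2-fold as dashed lines; lists are ordered by median and all 433 miRNAs are on top. The cartilage list has the lowest median (-1.46), and most lists lie within 0.5 of 0.

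Among the other families, the medians were -0.07 for let-7 (14 miRNAs), 0.03 for miR-23, miR-27 and miR-24 (10), -0.06 for miR-181 (10), -0.11 for miR-30 (10), -0.01 for miR-125 (5) and 0.09 for miR-29 (4), which was -0.37 with normexp. Farther from 0 were miR-182, miR-183 and miR-96 (2 miRNAs, at -0.49 and -1.52), miR-132 and miR-212 (0.51, 3), miR-148 and miR-152 (0.46, 3) and miR-34 and miR-449 (-0.46, 6), and the last 2 families changed sign with normexp. The miR-26 median (2 miRNAs) was -0.07, and 4.29 with normexp. The miR-130 and miR-301 family had a median of 0.38, with miR-130a-3p from 945.0 to 1293.8 (0.45, technical error 0.11). miR-378a-3p was at 791.1 and 657.7 (-0.27, technical error 0.11).

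Both arms were detected on both arrays for 101 hairpins. Their differences had the same sign in 53 and were more than 2-fold apart in 11, and the Pearson correlation across hairpins was 0.43, which is a description over miRNAs of the same 2 arrays. Where both arms exceeded the brightest negative control spot (52 hairpins) it was 0.61 and 3 were more than 2-fold apart. The widest gaps were in miR-376b (-1.03 for the 5p and 0.58 for the 3p arm), miR-3594 (-0.91 and 0.33), miR-434 (-0.62 and 0.61), miR-764 (0.80 and -0.42) and miR-212 (1.71 and 0.51). Arms with like differences included those of miR-142 (0.15 and 0.14), miR-652 (0.45 and 0.45), miR-136 (0.83 and 0.81) and miR-21 (0.40 and 0.38).

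Of the 49 miRNAs detected on the diabetic array only, 9 were at least 2-fold higher against the lowest detected level of the control array, and 1 of these exceeded the brightest negative control spot. That was miR-3587, at 117.2 in diabetic callus and not detected on the other 3 arrays, which makes it at least 10.2-fold higher. It was followed by miR-369-5p of the Dlk1-Dio3 region, at least 3.70-fold higher. miR-1199-3p, miR-139-5p and miR-496-3p were at least 2.61, 2.49 and 2.37-fold higher. Of the 68 detected on the control array only, 10 were at least 2-fold lower and none exceeded the brightest negative control spot. The bound was largest for miR-34c-3p, at 48.7 in control and at least 4.08-fold lower. miR-743a-3p, miR-3588, miR-96-3p and miR-219a-1-3p were at least 3.77, 3.64, 2.72 and 2.60-fold lower.

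The 2-fold limit cut through a continuous range of values. Just inside it lay miR-674-3p (1.04), miR-337-3p (1.03) and miR-3102 (1.03) on the higher and miR-6216 (-1.06), miR-210-3p (-1.05) and miR-376b-5p (-1.03) on the lower side. Just outside lay miR-34c-5p (0.97), miR-341 (0.94) and miR-145-3p (0.91), and miR-100-5p (-0.93), miR-503-3p (-0.92) and miR-3594-5p (-0.91).

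The day 5 arrays hold other animals and share no array with day 11. Of the 21 miRNAs lower on day 11, 19 were detected on both day 5 arrays and 11 of these were lower in diabetic callus there too, 10 of them by 1.5-fold, where 46.5% of the 400 miRNAs detected on all 4 arrays were lower on day 5 and 8.0% by 1.5-fold. Of the 17 higher ones, 14 were detected and 8 were higher on day 5, 4 of them by 1.5-fold, beside 53.5% and 11.5% of the 400, so the share of these higher by any size was near that of all. Across the 400 miRNAs detected on all 4 arrays the differences of both days had a Pearson correlation of 0.18 and a Spearman correlation of 0.17. The miRNAs lower on both days included miR-6216, miR-3075, miR-207, miR-3557-3p, miR-330-3p, miR-6324 and miR-210-3p, while the cartilage list had a median of 0.11 on day 5. No test of the difference between the days is possible with 1 array per group.

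**Figure D5:**
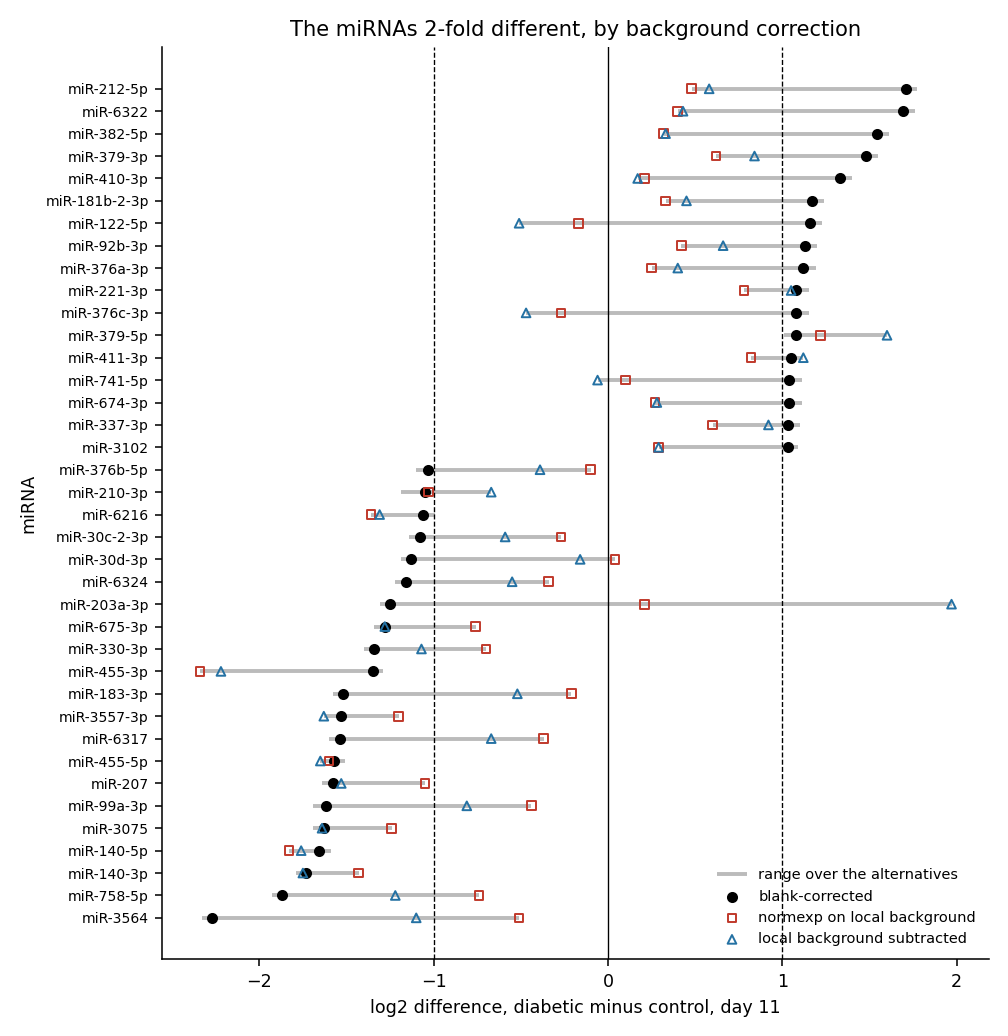
log2 difference, diabetic minus control on day 11, of the 38 miRNAs 2-fold different with blank correction (black), beside normexp on the local background (squares), local background subtracted (triangles) and the range over all 9 alternatives (grey bars); dashed lines mark 2-fold. miR-140, miR-455, miR-3075, miR-207 and miR-3557-3p lie below -1 with each, though the diabetic level of miR-207 was under the brightest negative control spot. Most of the higher miRNAs move inside 2-fold with normexp, whose offset makes the differences of dim spots smaller in size.

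The 2-fold lower miRNAs had a median GC content of 52.4% (19 with a sequence) and the higher ones of 45.5% (15). Across all miRNAs the difference had a Pearson correlation of -0.09 with GC content and of -0.01 with the mean log2 level.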

How the data were processed

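RNA of the pooled callus was labelled with Cy5 and hybridised to 3D-Gene miRNA arrays, per the labels' protocols. The deposited scanner files give the median intensity of each spot and of its local background, with nothing subtracted, per the file headers. How the authors made their value table is not described in the sources used here. On the day 11 arrays its values were the levels times a constant, 0.396 for control and 0.38 for diabetic callus. The largest deviation was 0.101% and 0.105%. This deposited table, also linear intensity, was used as an alternative only, and it shifts all differences alike.

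From these intensities the mean of the 1504 blank spots (5% left out at each end) was subtracted, miRNAs above the blank mean plus 2 SD were called detected, and each array was scaled to a median of 100 over the 400 miRNAs detected on all 4 arrays. Differences are log2 of the level, diabetic minus control. The number of arrays, 1 per group, limits the precision, and no test was run. The technical error combines the log2 SD of the spike spots (0.08 and 0.07) with the blank SD. A miRNA detected on 1 array only has a bound against the lowest detected level of the other array.

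Alternatives were normexp (offset 50, limma 3.58.1 in R 4.3.3) with quantile normalisation, subtraction of the local background, 4 other scalings (the median of miRNAs detected on both day 11 arrays, quantile, loess, spike controls), the deposited values, 5 blank SDs, no detection filter and a 1.5-fold limit. Other steps used Python 3.11.15 and pandas 2.3.3. The script was tested on simulated data with known changes. Mature sequences and positions are RefSeq's on GRCr8, and hairpins within 10000 bases form a cluster.

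The comparison, the lists and the alternatives were chosen with earlier results of these data known. The text names miRNAs that are 2-fold different, the 5 largest bounds each way, the 10 brightest, the brightest and dissenting members of each list, those near the limit and the hairpins whose arms differ most or least. miR-92b-5p, miR-15b-5p and further members of clusters and seed groups were named after their values were seen.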

Additional observations from a re-analysis of the deposited data

Results flagged for a closer look

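For 4 of the 2-fold miRNAs the day 5 difference had the opposite sign and exceeded 2 technical errors. On day 5 miR-183-3p was at 0.79, miR-455-3p at 0.37, miR-376a-3p at -0.53 and miR-379-3p at -0.44, against -1.52, -1.35, 1.12 and 1.48 on day 11. With 1 array per group and day, the difference between the days was not tested.

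The arrays also carry control probes named S-Probe, whose targets the files do not give. On both day 11 arrays 8 of them read above every negative control spot of the same array. The brightest such spot was at 34.3 on the control and 51.3 on the diabetic array, and S-Probe1021 was between these values on the control array. In control and diabetic callus on day 11, S-Probe1014 was at 23295.7 and 11352.9, S-Probe1018 at 5693.5 and 5467.9, S-Probe1002 at 442.5 and 517.7, and S-Probe1016 at 437.8 and 312.9. S-Probe1019 was at 347.8 and 295.2, S-Probe1005 at 208.9 and 219.5, S-Probe1007 at 148.2 and 344.7, and S-Probe1021 at 38.1 and 64.3.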

How the results depend on the processing

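No paired analysis was possible because each group has 1 array, and for the same reason no replicate could be left out. The alternatives shifted the median of all miRNAs by between -0.08 and 0.07. The count of 2-fold higher miRNAs, 17, was 34 with the local background subtracted, 5 with detection at 5 blank SDs, 59 with no detection filter and 52 at 1.5-fold. With normexp the counts were 12 higher and 17 lower. The count of 2-fold lower miRNAs, 21, was 12 with detection at 5 blank SDs, 72 with no detection filter and 53 at 1.5-fold. A pair of limits was added after the data had been seen. With the brighter level above the brightest negative control spot 11 were higher, and with the local background at most 50% of the spot 1 was higher and 4 lower. These last filters also leave fewer miRNAs to count.

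Medians of some lists changed sign. The epithelial median, -0.53, was 0.69 at 5 blank SDs and 0.71 above the negative control spots. The median of miR-34 and miR-449, -0.46, was 0.02 with normexp, 0.03 with local background subtracted, 0.40 at 5 blank SDs and 0.43 with either added limit. That of miR-148 and miR-152, 0.46, was -0.50 with normexp, -0.12 with local background subtracted and -0.09 with the background limit. That of miR-21 (2 miRNAs), 0.39, was -0.09 with normexp and 0.01 with local background subtracted. The quantile step after normexp sets miR-21-5p to 0.0 by its equal rank, so that sign rests on the dimmer miR-21-3p. Lists with a median within 0.3 of 0 also moved across it or away from it, with normexp and with local subtraction: miR-26, -0.07, was 4.29 and 2.86, erythroid, 0.00, was 2.00 and 2.49, miR-378, -0.27, was 0.09 and 0.36, miR-29, 0.09, was -0.37 and -0.52, and neural, 0.17, was -0.20 and -0.21. The endocrine and liver list, 0.28, was -0.08 and -0.12, miR-181, -0.06, was 0.21 and 0.14, miR-125, -0.01, was 0.31 and 0.27, and smaller shifts across 0 occurred in other lists. Among single miRNAs, with normexp and with local subtraction, miR-203a-3p was at 0.21 and 1.97, miR-376c-3p at -0.27 and -0.47, and miR-122-5p at -0.17 and -0.51. miR-30d-3p was at 0.04 with normexp and miR-741-5p at -0.06 with local subtraction. The cause was not tested. The cartilage median lay between -1.40 and -1.70 throughout. A level under 51.3, the brightest negative control spot, is not told apart from background by these arrays. On the diabetic day 11 array a spot with no probe reached 88.2, so a level there between both values is not safely above background either. Among the 2-fold higher miRNAs, miR-212-5p, miR-337-3p, miR-3102, miR-6322, miR-382-5p and miR-674-3p had their diabetic level in that range.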
